A study of Mus musculus with 16 samples.

Results

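The expression of 40 genes of S phase and DNA replication was examined in mIMCD3 cells, a mouse line derived from inner medullary collecting duct. The genes were taken by symbol from a given list. All 40 were found among the 55367 gene rows of each count file and all 40 passed the filter on low counts. RNA sequencing covered 16 libraries in 8 groups of 2 biological replicates. Wild-type (WT) cells received DMSO, the solvent, or 10 μM sulforaphane (SFN), which activates the transcription factor Nrf2, over 5 h of pretreatment and were then sampled in isosmotic medium (300 mOsm) or after 1 h or 6 h in hypertonic medium (600 mOsm). Nrf2-/- cells pretreated with SFN were sampled in isosmotic medium and after 1 h. Nrf2-/- cells with DMSO or at 6 h were not analysed here. The isosmotic cells were collected after pretreatment, so the 6 h libraries also differ from them in time and medium change, and the effects of stress and of time in culture cannot be told apart. The Nrf2-/- line was made with CRISPR and lentiviral selection with blasticidin and puromycin. Whether it is 1 clone is not given in the sources used here. All comparisons between genotypes are therefore comparisons of these lines.

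Replication begins when Cdc6 and the origin recognition complex load the MCM helicase onto origins in G1 and when Cdc45 and the GINS complex later turn it into an active fork. Primase and polymerase alpha start each strand, the clamp loader places the Pcna ring, and polymerases, nucleases, histone chaperones and checkpoint proteins follow the fork. Many of these genes are transcribed in late G1 by E2F factors, which are held in check by the Rb family. The mIMCD3 line came from a mouse carrying the SV40 early region, whose large T antigen binds Rb proteins. In bulk RNA, fewer cells in S phase and less RNA per cell cannot be told apart.

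Total counts ranged from 34484296 to 50774875 per library, and the lowest count of any member in any library was 80. The biological coefficient of variation of a replicate pair was 0.0393 to 0.128, except in the Nrf2-/- pair at 1 h, where it was 0.348. How the counts of members shifted without 1 of its libraries is also given, as are the values named from this pair. Nfe2l2, which encodes Nrf2, was at 11 to 11.6 CPM (counts scaled to a common library size) in the 4 Nrf2-/- libraries and at 64 to 149 in the WT libraries. Nqo1, a target of Nrf2, was at 0 to 0.255 CPM in Nrf2-/- cells and at 1.36 to 7.38 CPM in WT cells. All 5 osmolyte genes measured as a check of the stress were higher at 6 h with DMSO. Of the defining markers of collecting duct, Aqp2 was at or near 0 in every library, while the epithelial markers Krt7, Epcam and Cdh16 were present. Summed markers of other cells were low and higher at 6 h with DMSO: endothelium 4.52 to 4.54 CPM against 0.0476 to 0.177, leukocyte 6.89 to 10.7 against 2.64 to 3.14, fibroblast 6 to 7.47 against 2.81 to 3.19 and proximal tubule 21.2 to 27.5 against 9.06 to 11.5. By the test described next, 3 of 4, 2 of 4, 2 of 5 and 3 of 4 of these markers were higher, with Cd3e, Dcn and Col1a2 at 0. Their part in the results was not tested.

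Promoter windows from RefSeq (GRCm38.p6, 250 bases before to 50 after the start) were available for 30 of the 40 members. E2F words (TTTGGCGC, TTTCCCGC, TTTGCCGC or TTTCGCGC, either strand, overlapping matches counted) stood in 11 of these 30 windows (36.7%), against 2.26% of all 32851 windows. CCAAT stood in 70% of the member windows and in 37.4% of all windows. The word TTTGAA (CHR, the element of G2 and mitosis genes) stood in 16.7% against 17.9%, the core TGACNNNGC of the Nrf2 element in 13.3% against 12.4%, and the core TGGAAA of the Nfat5 element in 20% against 21.4%. The 6 windows printed here were chosen to show E2F words in genes that were higher (Casp8ap2, Cdc6), lower (Clspn, Pold3) or not called (Mcm5, Mcm6) after 6 h of stress. They are written 5′ to 3′ on the strand of the gene, with E2F words in capitals, and they lie at chr4:32615220-32615519 (plus strand, Casp8ap2), chr11:98907901-98908200 (plus strand, Cdc6), chr4:126556730-126557029 (plus strand, Clspn), chr7:100121453-100121752 (minus strand, Pold3), chr8:75109259-75109558 (plus strand, Mcm5), chr1:128359656-128359955 (minus strand, Mcm6).
Casp8ap2: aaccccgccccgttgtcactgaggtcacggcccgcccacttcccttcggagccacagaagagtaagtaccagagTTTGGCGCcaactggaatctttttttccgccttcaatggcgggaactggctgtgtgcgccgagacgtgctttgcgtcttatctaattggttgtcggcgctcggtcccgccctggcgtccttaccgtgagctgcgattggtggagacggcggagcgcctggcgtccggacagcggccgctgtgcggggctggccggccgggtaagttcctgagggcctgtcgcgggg
Cdc6: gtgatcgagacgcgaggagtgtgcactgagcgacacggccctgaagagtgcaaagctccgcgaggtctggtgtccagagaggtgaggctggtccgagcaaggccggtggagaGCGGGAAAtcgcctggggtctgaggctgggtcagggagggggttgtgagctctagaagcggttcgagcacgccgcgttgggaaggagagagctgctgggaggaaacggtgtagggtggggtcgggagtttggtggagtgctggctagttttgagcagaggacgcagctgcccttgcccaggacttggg
Clspn: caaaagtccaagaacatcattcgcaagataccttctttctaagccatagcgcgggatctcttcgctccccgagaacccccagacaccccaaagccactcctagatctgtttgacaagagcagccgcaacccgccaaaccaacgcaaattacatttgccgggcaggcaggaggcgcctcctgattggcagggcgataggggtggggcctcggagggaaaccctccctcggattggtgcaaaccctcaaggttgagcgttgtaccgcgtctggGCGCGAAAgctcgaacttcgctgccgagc
Pold3: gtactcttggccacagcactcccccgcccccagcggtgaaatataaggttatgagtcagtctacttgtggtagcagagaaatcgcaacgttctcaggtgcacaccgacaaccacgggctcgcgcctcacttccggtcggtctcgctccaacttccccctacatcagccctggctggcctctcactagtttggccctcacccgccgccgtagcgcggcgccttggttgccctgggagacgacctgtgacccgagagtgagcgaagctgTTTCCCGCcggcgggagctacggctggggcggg
Mcm5: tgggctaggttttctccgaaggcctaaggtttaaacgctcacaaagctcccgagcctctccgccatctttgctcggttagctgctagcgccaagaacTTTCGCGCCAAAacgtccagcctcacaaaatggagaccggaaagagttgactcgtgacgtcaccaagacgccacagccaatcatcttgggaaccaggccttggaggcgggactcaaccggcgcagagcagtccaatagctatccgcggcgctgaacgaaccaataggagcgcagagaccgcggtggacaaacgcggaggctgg
Mcm6: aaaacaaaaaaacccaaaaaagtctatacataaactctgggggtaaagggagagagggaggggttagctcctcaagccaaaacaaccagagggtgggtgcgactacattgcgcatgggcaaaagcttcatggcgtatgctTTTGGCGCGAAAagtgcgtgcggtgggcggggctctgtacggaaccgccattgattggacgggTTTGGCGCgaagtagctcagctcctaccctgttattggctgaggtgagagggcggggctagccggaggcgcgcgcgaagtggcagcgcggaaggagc
The word began 176 bases before the start in Casp8ap2, 138 before it in Cdc6, 22 after it in Clspn and 18 after it in Pold3. Mcm5 held 2 overlapping words and Mcm6 held 3. An E2F word stood in 2 of 8 windows of members higher at 6 h with DMSO, in 2 of 7 of those lower and in 7 of 15 of those not called. A match is a match of letters only.

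In isosmotic WT cells with DMSO, the members spanned a wide range of levels. Per kilobase of exon, Rrm2, a subunit of ribonucleotide reductase, was highest at 149 ± 7.65 CPM per kb (SD, n = 2), followed by Pcna at 111 ± 5.74 and Mcm4 at 85.6 ± 5.97. Mcm5 followed at 80.4 ± 0.85, and its mean lay within the SD around the mean of Mcm4. Cdc6 ranked 17th at 20.8 ± 0.291 CPM per kb and did not differ beyond the spread from Cdc45 at 20 ± 0.63. The repair helicases Blm (5.34 ± 0.36) and Brip1 (4.25 ± 0.447) and the clamp loader subunit Dscc1 (3.31 ± 0.298) were near the bottom. Fen1, the flap nuclease of lagging strand maturation, was lowest at 2.59 ± 0.0574. Its exons overlap genes on the opposite strand over 84.2% of their length, and those of Gins2 overlap another gene over 67.3%, so both values are uncertain. Pcna, Usp1 and Uhrf1 share 19.1%, 21.4% and 15.4% of their 50-base words with other genes, mostly processed pseudogenes.

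After 6 h of hypertonic stress with DMSO, the replication genes did not move together. Cdc6, the helicase loader, was 2.95-fold higher, and E2f8, Ung, Casp8ap2 and Brip1 were 2.04-fold to 2.31-fold higher. Dscc1, Blm and Tipin fell to 0.322, 0.379 and 0.409 of the isosmotic level. By edgeR's quasi-likelihood test with Benjamini-Hochberg adjusted p under 0.05 over 19509 genes, 11 members were higher and 10 lower, 21 of 40 (52.5%), against 45.9% of all genes tested (23.9% higher, 22% lower). Among the 9665 genes at least as abundant as the lowest member, 55.8% were called, so the members' share in this fit is near the background. The median log2 fold change of the members was −0.10, against 0.048 for all genes tested and −0.14 for the abundant genes. With the 12 WT libraries alone, 29 of 40 members were called, a larger share than the 57.6% of all genes. The share of the abundant genes in that fit is not given here. The plot of all members by role shows higher and lower members side by side among polymerase, clamp and repair genes.

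**Figure D1:**
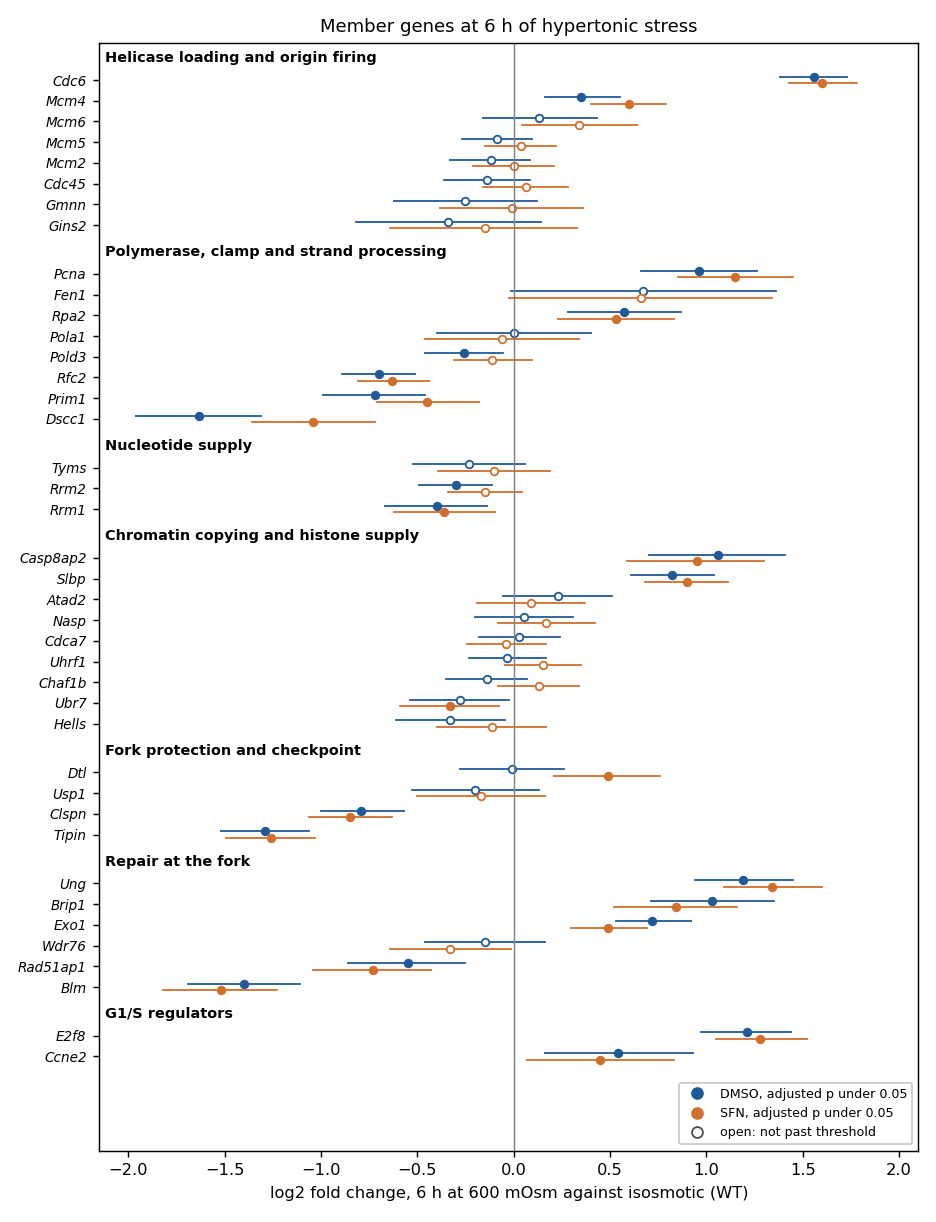
Log2 fold change (x axis) of each of the 40 members (rows, grouped by role) after 6 h at 600 mOsm against isosmotic WT cells, with DMSO (blue) or SFN (orange). Lines are 95% confidence intervals from edgeR and filled points have an adjusted p under 0.05. With DMSO, points run from −1.63 (Dscc1) to 1.56 (Cdc6).

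Of the 8 members that load and fire the helicase, 2 were higher and 0 lower at 6 h. Cdc6 stood at 109.7 and 107.5 CPM in isosmotic medium, 97.8 and 99.5 CPM at 1 h and 320.1 and 319.9 CPM at 6 h. The 6 h values lay far above the other WT libraries with DMSO, without overlap (log2 fold change 1.56, SE 0.082, adjusted p = 3.83e-09). Mcm4, a helicase subunit, rose by 0.35 (SE 0.091, adjusted p = 0.00515). The other MCM members measured stayed within narrow limits, at 0.13 for Mcm6, −0.087 for Mcm5 and −0.12 for Mcm2, none past the threshold. Cdc45 (−0.14), Gins2 (−0.34) and Gmnn (−0.25), the gene of the loading inhibitor geminin, were not called either. So the gene of the loader had by far the largest change within its role, while the members for the helicase ring and its activators had log2 fold changes between −0.34 and 0.35.

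Among the 8 members for polymerases, clamp and strand processing, 2 were higher and 4 lower. Pcna, the sliding clamp, was at 257.9 and 277.3 CPM in isosmotic medium and at 522.6 and 516.8 CPM at 6 h. Dscc1, part of an alternative clamp loader, was at 13.7 and 15.6 CPM and then at 4.78 and 4.66 CPM. Neither gene overlapped between the groups, and the clamp and this loader subunit moved in opposite directions (Pcna log2 fold change 0.96, SE 0.14, adjusted p = 6.55e-05). For Dscc1 the log2 fold change was −1.63 (SE 0.15, adjusted p = 1.04e-06). Rfc2, a subunit of the main clamp loader, fell by 0.70 and Prim1, the catalytic subunit of primase, fell by 0.72 on the log2 scale. Pold3, a polymerase delta subunit, fell by 0.26, while Rpa2, which coats single-stranded DNA, was higher by 0.57. Pola1, the catalytic subunit of polymerase alpha, was at −0.00038 and was not called. Fen1 was at 0.67 with a wide interval of −0.012 to 1.36 (adjusted p = 0.102).

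Of the 3 members that supply nucleotides, 2 were lower and 0 higher. Both subunits of ribonucleotide reductase fell, Rrm1 by 0.40 (adjusted p = 0.0139) and Rrm2 by 0.30 (adjusted p = 0.0114) on the log2 scale. Tyms, thymidylate synthase, was at −0.23 and was not called.

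For histone supply and chromatin copying, 2 of 9 members were higher and 0 lower. Both work on histone mRNA. Slbp, which binds the stem-loop of replication-dependent histone mRNAs, was at 116.5 and 120.2 CPM in isosmotic medium and at 202.1 and 216.3 CPM at 6 h. Casp8ap2, needed for processing of histone pre-mRNA, was at 50.1 and 37.1 CPM and then at 94.8 and 86.4 CPM. The groups did not overlap for either gene, with log2 fold changes of 0.82 for Slbp (SE 0.10, adjusted p = 1.22e-05) and 1.06 for Casp8ap2 (SE 0.17, adjusted p = 1.17e-04). The isosmotic values of Casp8ap2 were spread widely. The chaperone genes Chaf1b (−0.14) and Nasp (0.054), the remodeller gene Hells (−0.33) and Uhrf1 (−0.033), which reads hemimethylated DNA, did not pass the threshold, nor did Atad2 (0.23), Cdca7 (0.03) and Ubr7 (−0.28).

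Fork protection and repair were divided. Of the 4 fork and checkpoint members, 2 were lower and 0 higher. Tipin, the partner of Timeless at the fork, was at 60.4 and 64.9 CPM in isosmotic medium and 25.4 and 25.8 CPM at 6 h. Clspn, the adaptor for checkpoint kinase activation, was at 84.5 and 80.6 CPM and fell to 46.8 and 48.9 CPM. Both genes were lower in both libraries of the 6 h group than in any other WT DMSO library (Tipin −1.29, adjusted p = 4.02e-07, and Clspn −0.79, adjusted p = 1.69e-05). Dtl, which marks licensing factors for degradation, was at −0.011, and Usp1, a deubiquitinase of Pcna, was at −0.20. Of the 6 repair members, 3 were higher and 2 lower. Ung, the uracil glycosylase, was at 51.5 and 58.8 CPM and then at 122.6 and 129.7 CPM. Brip1, a helicase of crosslink repair, was at 34.04 and 29.34 CPM and then at 65.1 and 64.3 CPM. The 6 h values of both were above all isosmotic values (Ung 1.19, adjusted p = 1.72e-06, and Brip1 1.03, adjusted p = 5.76e-05). Exo1, an exonuclease of mismatch repair, was higher by 0.72. Blm, the RecQ helicase, was at 49.2 and 44.7 CPM in isosmotic medium and 18.0 and 17.6 CPM at 6 h (−1.40, SE 0.14, adjusted p = 1.63e-06). Rad51ap1 fell by 0.55 on the log2 scale, and Wdr76 was at −0.15. Thus 2 DNA helicase genes of repair, Blm and Brip1, changed in opposite directions.

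Both regulators among the members were higher. E2f8, a repressor of the E2F family, was at 45.3 and 41.3 CPM in isosmotic medium and at 103.9 and 95.9 CPM at 6 h (log2 fold change 1.21, SE 0.11, adjusted p = 7.55e-07). Ccne2, cyclin E2, was higher by 0.54 (SE 0.18, adjusted p = 0.0219). Its exons overlap another gene over 17.4% of their length, against 11.2% for E2f8.

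**Figure D2:**
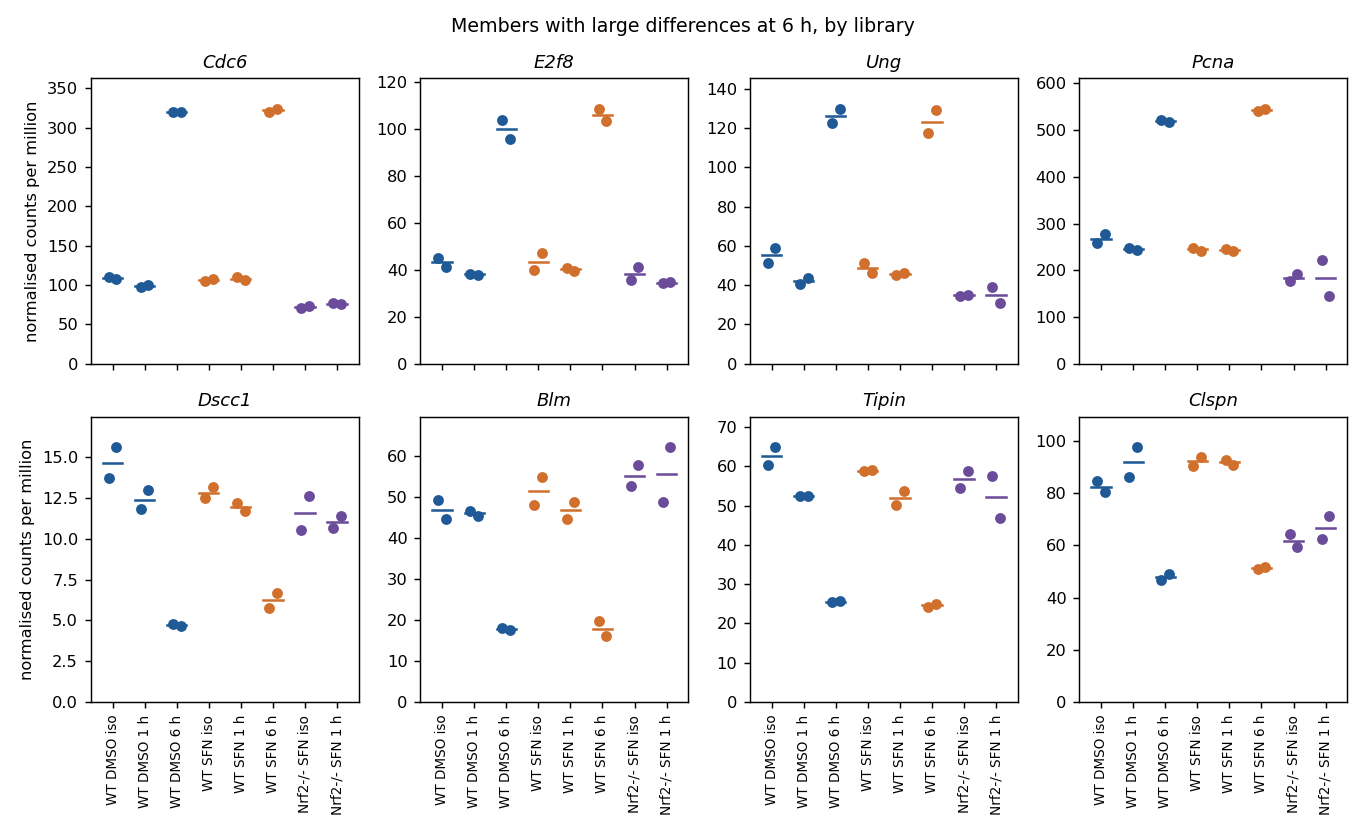
Normalised CPM (y axis, from 0) of 8 members in the 16 libraries, by group on the x axis. Points are libraries and bars are means of 2. Cdc6, E2f8, Ung and Pcna are highest in the 4 libraries at 6 h, and Dscc1, Blm, Tipin and Clspn are lowest there.

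With SFN pretreatment, most of the members called with DMSO were called again. At 6 h, 12 members were higher and 9 lower than in isosmotic SFN libraries, against 47.6% of all genes tested (24.7% higher, 22.9% lower). Of the abundant genes, 56.9% were called. The split was 18 higher and 7 lower with the trend with exon length removed, a setting for which no share of all genes is given here. The WT libraries alone gave 28 of 40 members, a larger share than the 59.7% of all genes. Of the 21 members called with DMSO, 19 were called with the same sign with SFN, which is 90.5% of each list, against 81.8% and 79% for all genes tested and 84.7% and 83.1% for the abundant genes. These comparisons share no library, and the log2 fold changes had a Pearson r of 0.97 over 40 members and 0.82 over all genes, given as a description. Pold3 and Rrm2 were called with DMSO alone, and Ubr7 (−0.33, adjusted p = 0.0339) and Dtl (0.49, adjusted p = 0.00589) with SFN alone. A difference between the pretreatments was not shown by these lists and was tested as the SFN effect at 6 h minus that in isosmotic medium. In that test 0 members were called, against 0.759% of all genes. At unadjusted p under 0.05 it held Dscc1 (0.59, adjusted p = 0.357) and Dtl (0.50, adjusted p = 0.368), and DESeq2 called 0. With the 12 WT libraries alone, 1 member was called, Dtl, against 4.24% of all genes.

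Cdc6 was at 104.6 and 107.7 CPM in isosmotic SFN libraries and at 320.1 and 323.9 CPM at 6 h (1.60, adjusted p = 2.38e-09). For Dscc1 the values were 12.5 and 13.1 CPM and then 5.76 and 6.70 CPM (−1.04, adjusted p = 5.42e-05). Again the 6 h libraries stood apart in both genes, and Blm (−1.52), Tipin (−1.26), Ung (1.34), E2f8 (1.28) and Pcna (1.15) followed the same directions. In all, 17 members were called in neither 6 h comparison and 23 in at least 1 of them.

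**Figure D3:**
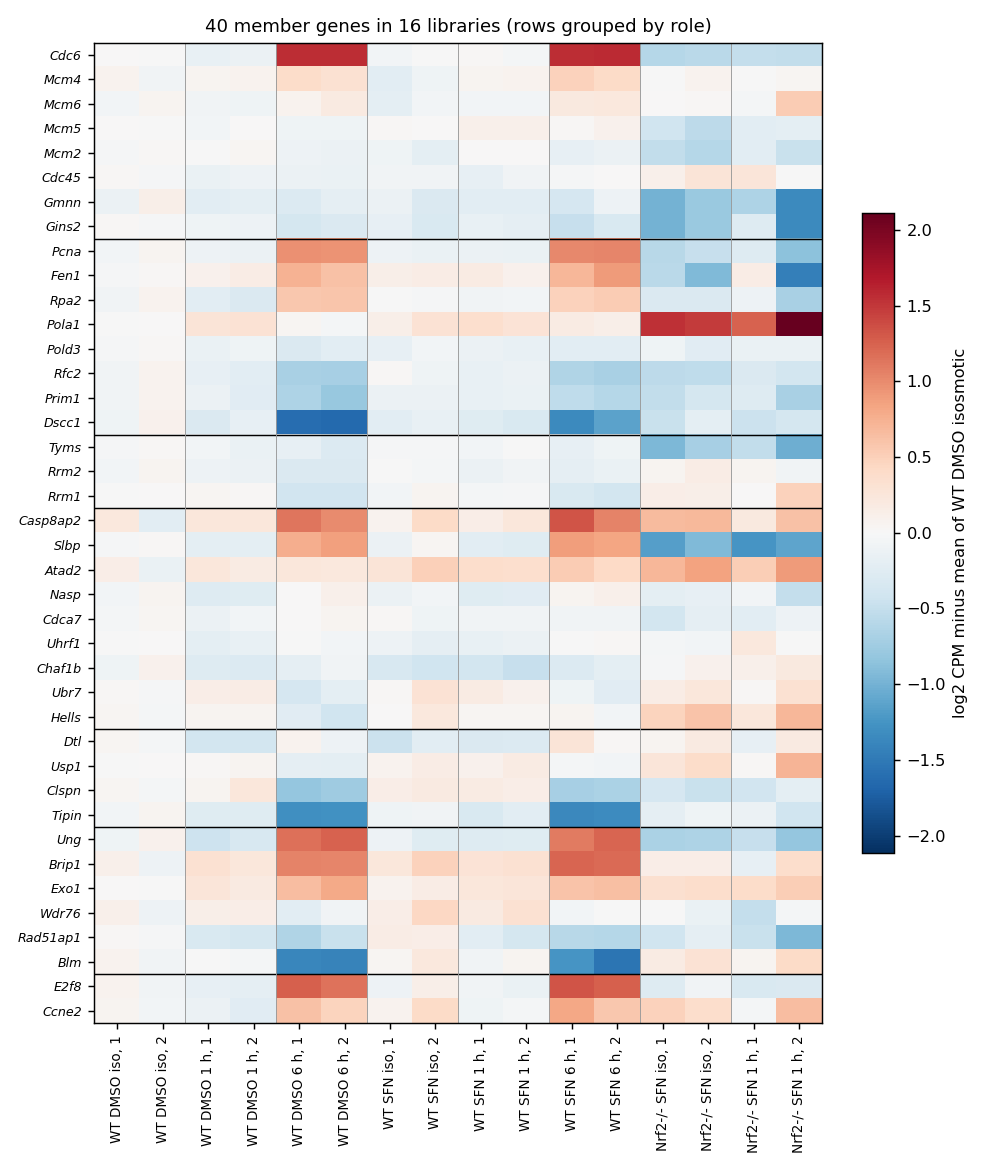
Log2 CPM of the 40 members (rows, grouped by role) in the 16 libraries (columns) minus the mean of the isosmotic WT libraries with DMSO. Red is higher and blue lower. The 4 libraries at 6 h share a pattern of red rows such as Cdc6 and blue rows such as Blm, while the WT libraries at 1 h are pale.

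At 1 h, few members passed the test. After 1 h with DMSO, 11.2% of all genes tested and 6.96% of the abundant genes were called. Among the members 1 was called, Ung, which fell by 0.39 on the log2 scale (adjusted p = 0.046). This call was lost without any 1 of the 4 libraries, with RLE size factors, with at least 10 counts in every library and with the replicate block, each of which called 0. The members lay between −0.39 and 0.28, and 8 had an unadjusted p under 0.05. With the 12 WT libraries alone, 11 members were called, against 22.9% of all genes. Ung was at 40.8 and 43.4 CPM at 1 h. The all-gene fold change followed exon length here (Spearman 0.43 over 9362 genes), as did the difference between the isosmotic DMSO replicates (−0.60), and the part of this in the members' values was not tested. With SFN, 0 members were called after 1 h, against 9.52% of all genes and 5.21% of the abundant genes. There, 2 had an unadjusted p under 0.05, the lowest adjusted p was 0.0665 for Rad51ap1, DESeq2 called 1 and the WT libraries alone gave 4, against 18.3% of all genes. Between 1 h and 6 h with DMSO, 13 members were higher and 9 lower, against 42.4% of all genes (20.4% higher, 22% lower). Of the abundant genes, 55.5% were called. Cdc6 was at 1.70, Ung at 1.58, Dscc1 at −1.39 and Blm at −1.37. With the length trend removed the split was 17 and 7, and no share of all genes is given here for that setting.

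In WT cells, edgeR called no member for SFN alone in the fit of all 16 libraries, and other settings called up to 6 in isosmotic medium. Against DMSO in isosmotic medium, 0 members were called, against 2.84% of all genes and 4.8% of the abundant genes. There, 4 had an unadjusted p under 0.05, the nearest to the threshold being Chaf1b (−0.38, adjusted p = 0.0508), and DESeq2 called 1. The WT libraries alone gave 6, against 15.2% of all genes. At 1 h, 0 were called by edgeR or DESeq2 and 0 had an unadjusted p under 0.05, against 0.0923% of all genes called. At 6 h, 0 were called by either tool, against 0.041% of all genes, and Hells (0.33) and Dscc1 (0.40) had an unadjusted p under 0.05. The 95% intervals of the SFN difference at 6 h were −0.16 to 0.18 for Cdc6, −0.23 to 0.36 for Pcna and 0.065 to 0.73 for Dscc1 on the log2 scale. In isosmotic medium the all-gene fold change followed exon length (Spearman 0.42 over 9362 genes), and the part of this in the members' values was not tested.

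Other replication genes, from a list of 47, give the members their context. After 6 h with DMSO, 5 were higher and 19 lower (24 of 47, 51.1%), with a median log2 fold change of −0.25. This share lay between those of all genes tested (45.9%) and of the abundant genes (55.8%). The abundant genes were themselves more often lower, with 20.4% higher and 35.4% lower (median −0.14). Among 18 other origin genes, 5 were higher and 5 lower, led by Orc5 (−1.91), an origin recognition subunit, Ticrr (0.83) and Orc1 (0.63). Mcm3 (0.47) and Mcm7 (0.48), named after their values were seen because they complete the helicase ring with the members, were called higher. Of 17 other polymerase and clamp genes, 10 were lower and 0 higher. The largest falls were in the clamp loader subunits Rfc4 (−1.20) and Rfc5 (−0.79) and in Pold2 (−0.60). Rfc1 and Rfc3, chosen in the same way, were also called lower, at −0.46 and −0.52, so all 5 subunits of the main clamp loader, Rfc2 included, were lower while the clamp gene Pcna was higher. Of the other genes of nucleotide supply, 1 of 5 was lower (Tk1, −0.92), as were 1 of 3 for chromatin (Asf1b, −0.55) and 2 of 4 for the fork. After SFN, 5 of the 47 were higher and 22 lower, against 20.5% and 36.4% of the abundant genes.

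Of 14 regulators of the G1/S transition, 7 were higher and 4 lower at 6 h with DMSO. E2f7, which acts with E2f8 as a repressor, was higher by 1.57, E2f2 was higher by 1.00 and Rbl1, a gene of the Rb family, fell by 1.25 on the log2 scale. Cdkn1a, the p21 inhibitor of cyclin-dependent kinases, was at 80.4 and 93.9 CPM in isosmotic medium and at 118.5 and 111.5 CPM at 6 h (0.40, adjusted p = 0.00658). With SFN, Cdkn1a was higher at 6 h by 1.52, from 50.8 and 45.7 CPM. This larger rise started from a lower level, as isosmotic Cdkn1a was lower with SFN than with DMSO (−0.85, adjusted p = 3.21e-04). At 6 h the difference between SFN and DMSO was not called, though its unadjusted p was under 0.05. The SFN effect at 6 h minus that in isosmotic medium was called higher for Cdkn1a (adjusted p = 0.00136). Of 30 genes of G2 and mitosis, 2 were higher and 22 lower with DMSO (median −0.54), and 0 were higher and 23 lower with SFN (median −0.63). The largest falls with DMSO were in the mitotic entry genes Cdc25c (−1.55) and Ccnb1 (−1.25) and the spindle checkpoint kinase gene Ttk (−1.15). Of the abundant genes, 20.4% were higher and 35.4% lower with DMSO, and 20.5% and 36.4% with SFN. The S phase members, with 11 higher and 10 lower, had no such one-sided count with DMSO. The other replication genes called were mostly lower, so an even split was not shared by replication genes outside the members. A difference between these lists was not tested.

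The Nrf2-/- and WT lines differed in a part of the replication genes before any stress. Among isosmotic SFN libraries, Pola1 was 2.45-fold higher in Nrf2-/- cells, while Slbp and Tyms were at 0.496 and 0.576 of the WT level and Gmnn at 0.627. In all, 5 members were higher and 12 lower in Nrf2-/- cells (17 of 40, 42.5%), against 34.1% of all genes tested (15.7% higher, 18.4% lower) and 47.5% of the abundant genes. The median of the members was −0.12, against −0.00091 over all genes. The count fell whichever 1 of the 4 libraries was left out, and most without WT replicate 1. Without the Nrf2-/- pair at 1 h it rose to 27, a setting for which no share of all genes is given here. The split became 8 higher and 12 lower with RLE size factors and 10 and 13 with DESeq2. Shares of all genes for these settings are not given here either.

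In the helicase role, 5 of 8 members were lower and 0 higher. Cdc6 was at 71.4 and 72.9 CPM in Nrf2-/- cells and at 104.6 and 107.7 CPM in WT cells. Mcm5 was at 239.5 and 218.5 CPM against 325.6 and 324.8 CPM. In both genes every Nrf2-/- value lay under every WT value (Cdc6 −0.56, adjusted p = 8.02e-05, and Mcm5 −0.51, adjusted p = 3e-04). Gmnn was at 31.1 and 36.2 CPM against 56.9 and 50.3 CPM. Gins2, a subunit of the helicase activator GINS, was at 21.02 and 24.47 CPM against 37.4 and 33.7 CPM. These groups did not overlap either, but the calls of Gmnn (−0.67, adjusted p = 0.0079) and Gins2 (−0.64, adjusted p = 0.0397) were lost when some libraries were left out. For Gmnn these were Nrf2-/- replicate 1 and WT replicate 1, and for Gins2 any of the 4. Mcm2 fell by 0.41 on the log2 scale (adjusted p = 0.00416).

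Of the polymerase and clamp members, 1 was higher and 2 lower. Pola1 was at 165.8 and 157.7 CPM in Nrf2-/- cells and at 61.8 and 70.2 CPM in WT cells, without overlap (1.29, SE 0.19, adjusted p = 8.33e-05). Rfc2 was at 82.5 and 83.6 CPM against 123.1 and 114.3 CPM (−0.52, adjusted p = 3.54e-04), and Pcna fell by 0.41 on the log2 scale (adjusted p = 0.0337). For nucleotide supply, Tyms was at 55.3 and 65.6 CPM against 104.8 and 105.2 CPM (−0.80, adjusted p = 3.67e-04). The lines did not overlap in Rfc2 or Tyms. Slbp had the smallest adjusted p of all members, at 52.6 and 61.8 CPM against 109.0 and 121.4 CPM (−1.01, SE 0.10, adjusted p = 2.26e-06). The chromatin genes Hells (0.42), Chaf1b (0.41) and Atad2 (0.39) were higher in Nrf2-/- cells. At the fork, Dtl was higher (0.46, adjusted p = 0.0111) and Clspn lower, at 64.3 and 59.3 CPM against 90.6 and 93.9 CPM (−0.58, adjusted p = 3.51e-04). Of the repair genes, Ung was at 34.6 and 35.1 CPM against 51.3 and 46.0 CPM (−0.48, adjusted p = 0.00541), a call lost without WT replicate 1, and Rad51ap1 fell by 0.45 on the log2 scale. Neither G1/S regulator was called.

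**Figure D4:**
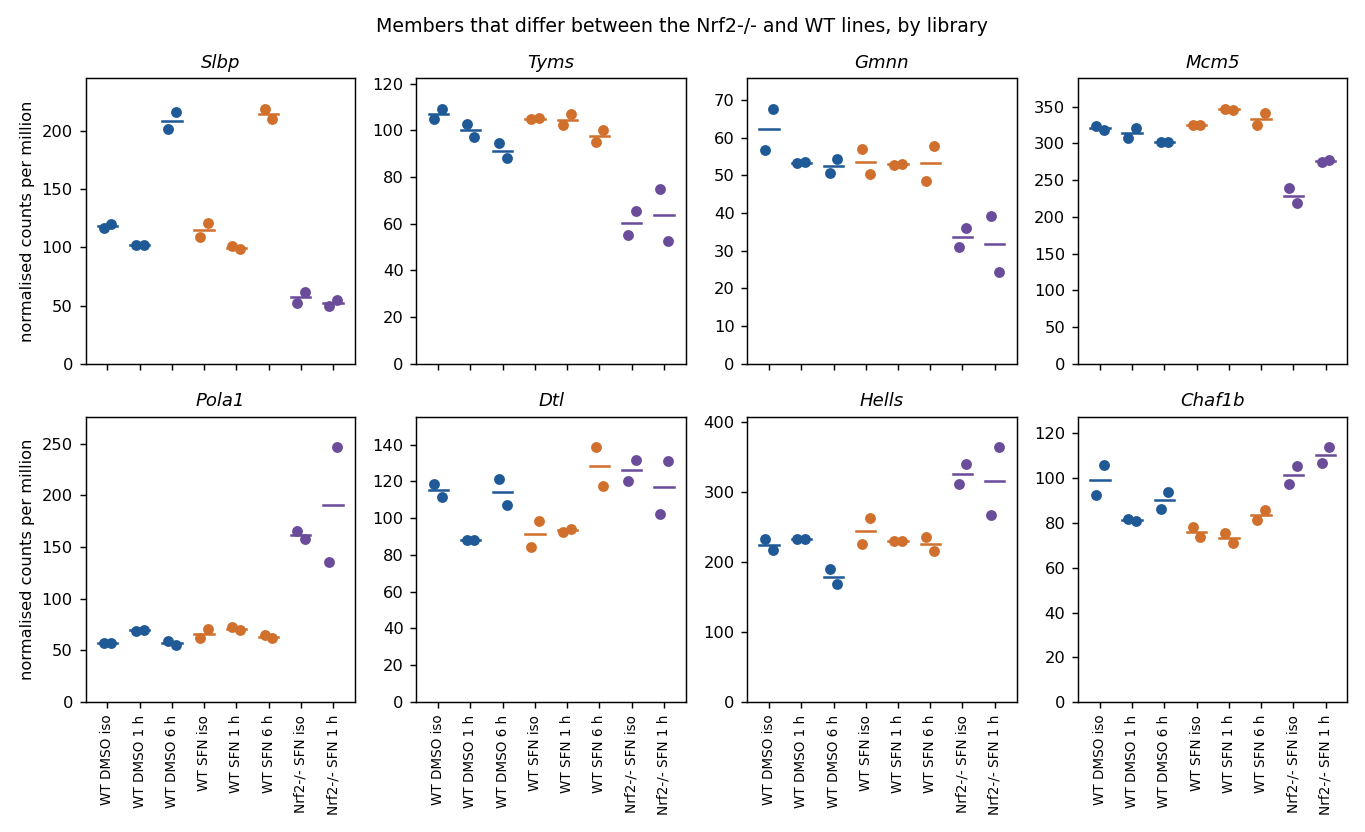
Normalised CPM (y axis, from 0) of 8 members in the 16 libraries, by group on the x axis. Points are libraries and bars are means of 2. Slbp and Tyms are lower in all 4 Nrf2-/- libraries than in any WT library, and Pola1 is higher.

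After 1 h of stress with SFN, 3 members were higher and 11 lower in Nrf2-/- cells, 14 of 40 (35%), against 31.5% of all genes tested (15.3% higher, 16.2% lower) and 44.5% of the abundant genes. Of the 17 members called in isosmotic medium, 13 were called with the same sign, 76.5% of the first list and 92.9% of the second, against 73.4% and 79.3% for all genes tested and 78.5% and 83.8% for the abundant genes. No library was shared, and the Pearson r was 0.96 over 40 members and 0.70 over all genes, given as a description. Without Nrf2-/- replicate 1 or 2 at 1 h, the r over the members was 0.93 or 0.80. Pola1 was at 135.5 and 246.3 CPM in the Nrf2-/- libraries, widely apart, against 72.5 and 69.7 CPM in WT (1.43, adjusted p = 3.88e-05). Its log2 fold change was 1.80 without Nrf2-/- replicate 1 and 0.93 without replicate 2. Slbp was at 49.8 and 54.9 CPM against 101.1 and 98.7 CPM (−0.93, adjusted p = 5.93e-06), with −0.85 and −1.01 without these replicates. These genes did not overlap between genotypes although Pola1 differed greatly between replicates. Without Nrf2-/- replicate 1 the count rose, as did the share of all genes called, and without either WT replicate it fell. With the 4 libraries compared alone it was 1. DESeq2 gave 9 higher and 11 lower, and RLE size factors 6 and 10, and removal of the length trend 7 and 13. No share of all genes is given here for these settings. The 1 h response itself in Nrf2-/- cells had 0 members called, against 7.17% of all genes and 3.07% of the abundant genes. It had 4 at unadjusted p under 0.05 and 1 called by DESeq2. Leaving out a replicate of the Nrf2-/- pair at 1 h raised the count. The difference in the 1 h response between genotypes had 0 called, against 0.123% of all genes, with 1 at unadjusted p under 0.05 and 0 by DESeq2. Members were also called for this difference when either Nrf2-/- replicate at 1 h was left out.

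The genotype difference of the members was in part related to that of their chromosomes, with exceptions. Pola1 lies on the X chromosome (X, 93304767 to 93632155, GENCODE M21 on GRCm38, 37 exons). The 284 X genes analysed had a median log2 fold change of 0.92, and 272 of them (95.8%) were above 0. Within 2 Mb of Pola1, 9 of 9 neighbours were higher and called in both genotype comparisons, at 0.47 to 2.59. Over 40 members, the fold change had a Pearson r of 0.63 with the median of the other genes on the same chromosome, and 0.47 over the 39 without Pola1, described without a test. Mcm2 (−0.41 on a chromosome at 0.16), Hells (0.42 at −0.16) and Atad2 (0.39 at −0.24) went against their chromosomes. With the chromosome medians removed, a calculation added after the data were seen, 3 members were higher (Casp8ap2, Hells, Atad2) and 9 lower, against 31% of all genes (15.4% higher, 15.7% lower). Pola1 was then at 0.38 (adjusted p = 0.142) and Pcna at −0.12 (adjusted p = 0.56). Chaf1b (0.046), Dtl (0.20), Gmnn (−0.45) and Gins2 (−0.52) were no longer called either. Slbp (−0.86, adjusted p = 1.28e-05), Tyms (−0.64), Rad51ap1 (−0.61), Mcm2 (−0.57), Clspn (−0.56), Mcm5 (−0.38), Cdc6 (−0.38), Rfc2 (−0.36) and Ung (−0.33) were still called lower. Of 14 markers of collecting duct and epithelium, 4 were higher and 4 lower in isosmotic Nrf2-/- cells, with a sum of 2880 to 3120 CPM against 2050 to 2230 CPM. The Nrf2-/- line had lower Cdh16 (14.1 to 25.5 CPM against 164.6 to 463.2 in WT) and higher Krt7 (833.5 to 1308 against 157.8 to 380 CPM), and their part in the results was not tested. Member fold changes also followed gene span (Spearman 0.50 in isosmotic medium).

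**Figure D5:**
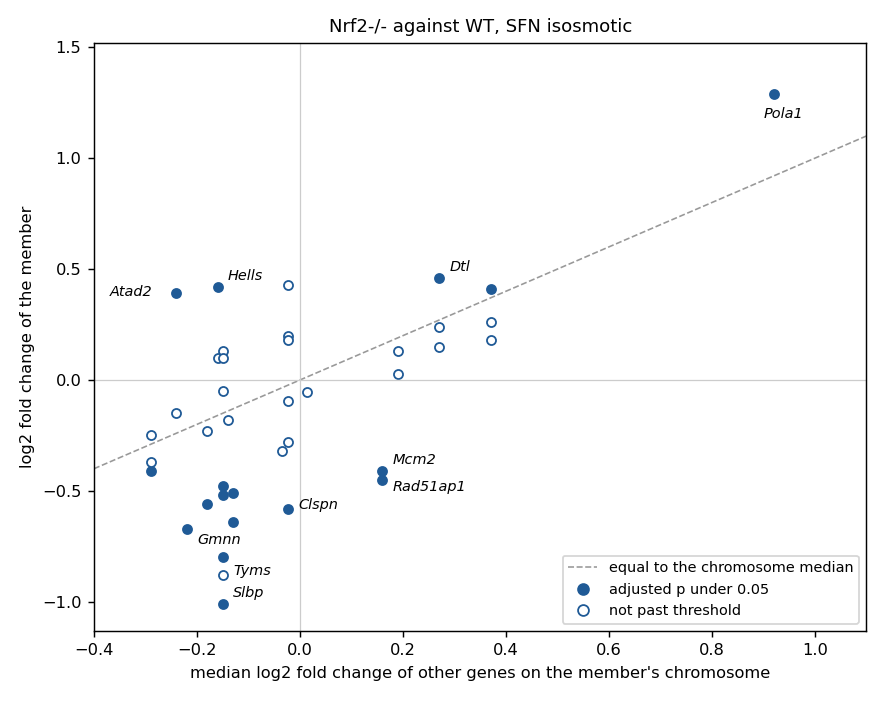
Log2 fold change of each of the 40 members in Nrf2-/- against WT isosmotic SFN libraries (y axis) against the median of the other genes on its chromosome (x axis). Filled points have an adjusted p under 0.05 and the dashed line marks equality. Pola1 lies far to the right with the X chromosome genes, and Slbp lies well under the line.

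Among other replication genes, 4 of 47 were higher and 18 lower in isosmotic Nrf2-/- cells (median −0.27), with Dna2 (−0.96), Orc2 (0.64) and Tk1 (−0.62) changed most. Of the abundant genes, 22.6% were higher and 24.9% lower in this comparison, and 22.9% and 21.5% in that at 1 h. Of the G1/S regulators, 3 of 14 were higher, Ccnd1 (1.69), Ccne1 (0.50) and Cdkn1a (0.41), and 3 were lower, among them Cdk2 (−0.51). Of the G2 and mitosis genes, 16 of 30 were lower and 0 higher (median −0.38). At 1 h, 7 of 47 replication genes were higher and 11 lower, and 16 of 30 mitotic genes were lower and 0 higher. Without Nrf2-/- replicate 1 at 1 h these were 10, 19, 16 and 7, and without replicate 2 they were 6, 12, 16 and 0.

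Set side by side, the 6 h comparison with DMSO and the isosmotic genotype comparison share no library. Cdc6, Slbp, Ung and Pcna were higher at 6 h and lower in Nrf2-/- cells (10% of the members, against 3.57% of all genes tested and 4.6% of the abundant genes). Clspn, Rfc2 and Rad51ap1 were lower in both (7.5%, against 6.09% and 10.1%). No member was higher in both or lower at 6 h and higher in Nrf2-/- cells. These shares were 4.2% and 4.08% of all genes and 6.26% and 6.98% of the abundant genes. For genotype alone, 10 members were called (25%, against 16.1% of all genes and 19.6% of the abundant genes). In neither comparison, 9 were called (22.5%, against 37.9% and 24.6%), so these shares were nearer to those of the abundant genes. These counts are a description of the members. In the genotype comparison, the call of Pcna was lost with chromosome medians removed, and that of Ung without WT replicate 1. The members higher at 6 h had a median exon length of 5440 bases and a median level of 63.9 CPM, against 4710 bases and 60.7 CPM for those lower and 4670 bases and 92 CPM for the 19 not called.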

How the data were processed

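RNA was sequenced from mIMCD3 cells in 16 libraries of 8 groups, 2 biological replicates each. The authors extracted RNA with TRIzol, sequenced it on a NovaSeq, mapped reads to mm10 and deposited raw counts per gene symbol, without normalization. The aligner is Hisat2 in the methods and Bowtie2 in the submitters' processing notes, with SAMtools and featureCounts. Versions, annotation, strand and multimapping are not given in the sources used here. Lines without a gene name were left out. Even numbers made up more than their share of low counts, so a count may not be an independent fragment.

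Counts were fitted in R 4.3.3 with edgeR 4.0.16 (filterByExpr, TMM, robust quasi-likelihood test, 8 groups, 19509 genes), with Benjamini-Hochberg adjusted p under 0.05. CPM were normalised by TMM. Standard errors are on the log2 scale. The p-values rest on the spread between replicates, pooled over all 8 groups and moderated across genes. The widely spread Nrf2-/- pair at 1 h therefore enters every test of this fit. The members and lists were chosen with earlier results of these data known. Every member may be named. Libraries are given for the 10 members with the largest called change at 6 h with DMSO and in the isosmotic genotype comparison, plus examples at 1 h and with SFN. From other lists, up to 3 largest called changes are named. Replicate numbers did not pair libraries: of 28 correlations between groups (−0.079 to 0.12), 1 was over 0.1. Gene models came from GENCODE M21 and promoters from RefSeq (GRCm38.p6). Scripts were tested on simulated data. Alternatives were DESeq2 1.42.0, RLE factors, 2 count filters, fewer libraries, a replicate block, leaving out each library and, chosen after seeing the data, leaving out the Nrf2-/- pair at 1 h and removing trends with exon length or chromosome medians.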

Additional observations from a re-analysis of the deposited data

How the results depend on the processing

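Log2 fold changes were recomputed 260 times under these alternatives. These were of the 10 members with the largest called change at 6 h with DMSO and of the 10 in the isosmotic genotype comparison. Other values given by library, such as Ung at 1 h, were not among them. Of these, 250 kept their direction and side of the threshold, 10 were no longer past it and 0 reversed. Without 1 library in turn, the members called ranged from 15 to 19 at 6 h with DMSO, from 17 to 20 at 6 h with SFN, from 16 to 18 between 1 h and 6 h, from 10 to 15 for genotype in isosmotic medium and from 7 to 28 for genotype at 1 h. They ranged from 0 to 14 for the 1 h response of Nrf2-/- cells, from 0 to 6 for its difference from WT and from 0 to 0 for 1 h with DMSO and with SFN and for the SFN comparisons. With the 12 WT libraries alone, 11 members were called at 1 h with DMSO, 4 at 1 h with SFN, 6 for SFN in isosmotic medium and 1 for the change in SFN effect. With only the libraries compared, these were 7, 2 and 1 for the first 3, 2 for SFN at 1 h, 1 for SFN at 6 h and 1 for genotype at 1 h. Without both Nrf2-/- libraries at 1 h, the counts were 13 (1 h with DMSO), 3 (1 h with SFN), 5 (SFN isosmotic), 1 (change in SFN effect) and 27 (genotype isosmotic). DESeq2 called 1 member at 1 h with SFN, 1 for SFN isosmotic and 1 for the 1 h response of Nrf2-/- cells. RLE size factors, at least 10 counts in every library and the replicate block each left 0 at 1 h with DMSO. The block, whose numbers do not pair the libraries, otherwise left all counts within 1.5 times. For SFN isosmotic, no filter and at least 10 counts each gave 1. With the exon length trend removed, 2 members were called at 1 h with DMSO, 2 for SFN isosmotic, 1 for the change in SFN effect and 1 for the 1 h response of Nrf2-/- cells. With at least 10 counts the split at 6 h with SFN was 16 and 7 and that for isosmotic genotype 8 and 12. Apart from the fits of the 12 WT libraries and with chromosome medians removed, no share of all genes is given for these alternatives. The members' median at 6 h with DMSO, −0.10, was 0.018 with at least 10 counts and 0.058 with the length trend removed. The cause of these shifts was not tested.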
